A study of Mus musculus with 12 samples.

Results

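Imprinted growth genes were followed in gastrocnemius muscle of 12 mice from a model of facioscapulohumeral muscular dystrophy (FSHD), a disease in which the transcription factor DUX4 is expressed in skeletal muscle. The 9 genes, of 37748 in the table, were *H19*, *Igf2*, *Dlk1*, *Meg3*, *Cdkn1c*, *Peg3*, *Grb10*, *Plagl1* and *Mest*. They were chosen by name as imprinted growth regulators, with the rise of *H19* in both disease models already known. The comparisons of each disease model with control therefore chose the genes and are given as descriptions without a test. All 9 passed the filter on low counts, and 16679 genes were tested in all. For *Dlk1* only the severe group had at least 10 counts in each of its 3 mice.

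The mice formed 4 groups of 3 and were 13 weeks old. The control mice carried the MerCreMer recombinase under the ACTA1 promoter, which is active in skeletal muscle (strain ACTA1-MCM/+, untreated according to the labels). FLExD mice carried the inverted conditional DUX4 transgene (FLExDUX4/+) without recombinase and were also untreated. Both disease models were bi-transgenic (FLExDUX4/+;MCM/+) and received tamoxifen (TMX) intraperitoneally, as 1 injection of 5 mg/kg in the moderate model and as 2 injections of 10 mg/kg on consecutive days in the severe model, with muscle taken on day 9. One label text calls the lower dose mild and another calls the pathology moderate, and the second name is used here. Recombination in these muscles is mosaic, so each sample mixes recombined and unrecombined fibres with every other cell type. The tamoxifen, the joint presence of both transgenes and DUX4 itself cannot be told apart when a model is compared with control.

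An imprinted gene is transcribed mainly from the copy inherited from 1 parent. *Igf2*, *Dlk1*, *Peg3*, *Plagl1* and *Mest* are expressed from the paternal copy, and *H19*, *Meg3*, *Cdkn1c* and, in most tissues, *Grb10* from the maternal copy. Many of these genes are abundant in the fetus and fall after birth, and several are known to return in muscle that regenerates after injury. Reads here were not separated by parental allele, so the values are the sum of both copies.

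Poly(A)-selected libraries gave 23796902 to 29136403 expected counts per mouse. Levels are CPM, counts relative to the library total scaled by the trimmed mean of M values (TMM), except where TPM, which also divides by transcript length, is named. The *Wfdc3* transcript, a DUX4-responsive gene in mouse muscle, lay between 0.0496 and 0.386 CPM in the 6 control and FLExD mice and between 62.6 and 115.7 CPM in the 6 TMX-treated mice. The summed level of 6 adult muscle fibre markers (*Acta1*, *Ckm*, *Myh4*, *Myh1*, *Tnnt3*, *Mylpf*) was 124100 to 169800 CPM in control, 55970 to 67620 in moderate and 8666 to 15360 in severe muscle, with 5 of the 6 genes lower in moderate and 6 in severe than in control muscle. Of all tested genes 17% were called lower in moderate and 27.9% in severe muscle. With the loss of fibre transcripts the scaling matters. Under library size alone the median gene sat 0.65 log2 units above control in the moderate and 1.39 above in the severe model. With the scaling used here it sat at 0.04 and 0.08. Changes are therefore relative to the median gene, and a fall near or under that shift can turn into a rise under library size alone. The labels name no batch.

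The members sit at 7 loci of the mm10 genome (GRCm38, GENCODE M21 coordinates). *H19* (ENSMUSG00000000031, a long noncoding RNA) lies on the minus strand at chr7:142575529-142578143, with *Igf2* 72.6 kb away at chr7:142650766-142666816 on the same strand. *Cdkn1c* lies farther along the same chromosome at chr7:143458339-143461050, and *Peg3* near its other end at chr7:6703892-6730431, both on the minus strand. *Dlk1* (chr12:109452823-109463336) and *Meg3* (chr12:109541001-109571726) form a second pair on the plus strand, with a gap of 77.7 kb. *Grb10* is at chr11:11930508-12038683 on the minus strand, *Plagl1* at chr10:13060504-13131694 and *Mest* at chr6:30723547-30748465, both on the plus strand.

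Several of the loci also encode microRNAs, and the mature sequences from RefSeq (GRCm38.p6) are shown for *H19* and *Mest*, the most abundant member and the one that differed most between severe and control muscle. Capitals mark the seed, bases 2 to 8, which pairs with target transcripts. The seeds of these 4 microRNAs differ from each other, and 0 other mature mouse microRNAs in the RefSeq table share any of them.
miR-675-5p (within *H19*): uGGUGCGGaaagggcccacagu
miR-675-3p (within *H19*): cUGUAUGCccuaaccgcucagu
miR-335-5p (within *Mest*): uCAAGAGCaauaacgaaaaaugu
miR-335-3p (within *Mest*): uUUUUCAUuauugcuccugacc

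The poly(A) libraries do not measure mature microRNAs, and the precursor rows matter here only because they overlap their hosts. *Mir335* reached at most 1 count in any mouse. *Mir675*, which lies inside *H19* on the same strand, took 0.0648% to 1.42% of the counts assigned to *H19* and *Mir675* together. Its highest value was 990.6 counts in moderate mouse 1308, against 199 and 117 counts in the other moderate mice.

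Promoter sequence was available for 7 of the 9 members, in 14 windows of 250 bases before an annotated start (RefSeq, GRCm38.p6). Each window was searched on both strands for the E-box CAGCTG bound by myogenic factors, for GGGGCCCC, the core bound by the Plagl1 protein, and for a DUX4-type site, TAA and AATCA separated by NNN. The E-box was found in 1 of the 14 windows, upstream of *Mest*, and in 13.001% of all 32851 windows. GGGGCCCC was found in 1 window, upstream of *Peg3*, and in 0.889% of all windows. The DUX4-type letters were in 0 of the 14 and in 0.956% of all windows. The 2 windows with a match are shown because *Mest* and *Peg3* were among the members that differed most between severe and control muscle, with the matching letters in capitals.
*Mest*, chr6:30733256-30733505, plus strand: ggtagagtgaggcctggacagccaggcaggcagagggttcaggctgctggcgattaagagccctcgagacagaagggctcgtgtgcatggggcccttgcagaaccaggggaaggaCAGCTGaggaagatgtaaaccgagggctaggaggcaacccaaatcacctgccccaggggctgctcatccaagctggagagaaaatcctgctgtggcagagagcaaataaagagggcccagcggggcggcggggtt
*Peg3*, chr7:6730420-6730669, minus strand: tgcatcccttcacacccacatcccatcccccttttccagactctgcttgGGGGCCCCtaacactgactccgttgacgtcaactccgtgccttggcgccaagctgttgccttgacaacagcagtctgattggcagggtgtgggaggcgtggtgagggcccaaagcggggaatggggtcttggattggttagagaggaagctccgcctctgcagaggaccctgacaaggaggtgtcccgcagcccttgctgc

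These matches are descriptions of the letters. The E-box began 135 bases and the GGGGCCCC core 201 bases before the respective starts.

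**Figure D1:**
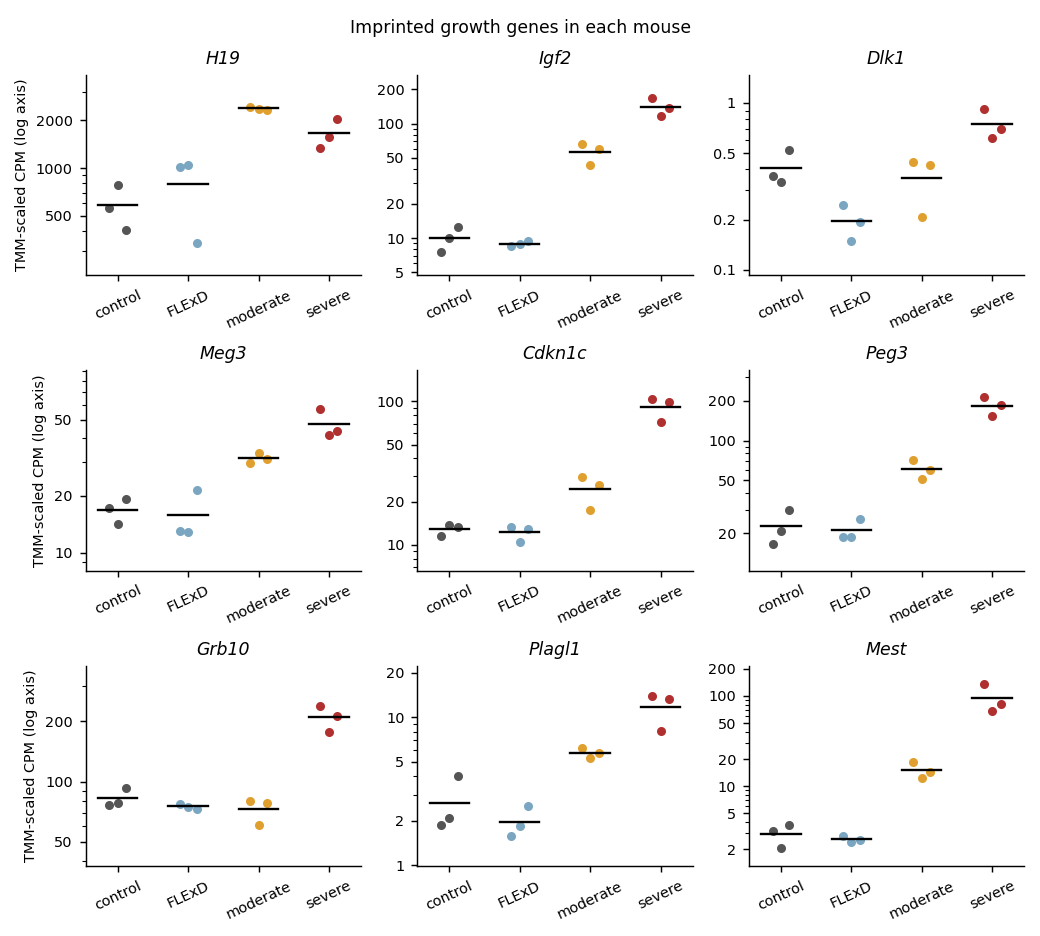
Level of each of the 9 imprinted growth genes in every mouse, in TMM-scaled CPM on a log axis, with points for mice and a line for the group mean (n = 3 per group). *Mest* runs from 2.07 to 3.70 CPM in control to 68.7 to 136 CPM in severe muscle, while *H19* is highest in the 3 moderate mice, at 2326 to 2428 CPM.

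*H19*, a noncoding RNA that restrains growth and is among the most abundant imprinted transcripts of muscle, stood out by level. In control mice it measured 561, 785 and 408 CPM, and in FLExD mice 1017, 1041 and 338 CPM. The moderate mice gave 2428, 2372 and 2326 CPM and the severe mice 1337, 1568 and 2050 CPM. Both model groups lay above all 6 mice without TMX, and the moderate mice lay above the severe mice. Such gaps were common: 61.01% of all tested genes lay apart, in either direction, in moderate versus control and 74.95% in severe versus control. In severe versus moderate the share was 61.26%. A gap between groups therefore does not set a member apart from other genes. Moderate muscle exceeded control by 2.02 ± 0.37 log2 units (SE, the log2 fold change divided by the square root of F) and severe muscle by 1.5 ± 0.37. Here as elsewhere in whole muscle, fewer cells of a type and less RNA per cell cannot be told apart. Dividing by length, *H19* made up 85.2% of the summed TPM of the 9 genes in control, 93.0% in moderate and 76.5% in severe muscle.

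The severe to moderate comparison did not choose the genes, although it uses the same model mice. For *H19* it gave -0.52 ± 0.36 log2 units, with an adjusted p of 0.25 (edgeR quasi-likelihood test over 16679 genes), so the lower severe level did not pass. Its direction depended on scaling, at 0.16 with library size alone and 0.11 on log2(TPM + 1). In TPM the moderate mice (1419 to 1656) and the severe mice (1378 to 1922) overlapped. Fitted on the moderate and severe mice alone, the difference was -0.51 ± 0.18 and passed, with an adjusted p of 0.0393.

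*Igf2* encodes the fetal insulin-like growth factor and shares enhancers with *H19*. It measured 7.56, 10.0 and 12.6 CPM in control and 8.46, 8.82 and 9.40 CPM in FLExD mice. In the models it reached 66.1, 43.6 and 59.9 CPM (moderate) and 167, 116 and 138 CPM (severe). The 3 levels, without TMX, moderate and severe, did not overlap. Relative to control, *Igf2* was higher by 2.49 ± 0.20 log2 units in moderate and by 3.8 ± 0.21 in severe muscle. Severe muscle was higher than moderate by 1.31 ± 0.18 log2 units (adjusted p = 8.08e-05).

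The ratio of *H19* to *Igf2* within a library does not depend on how libraries are scaled. It was 74.2, 78.3 and 32.5 in control, 120.2, 118 and 36.0 in FLExD, 36.7, 54.4 and 38.8 in moderate and 7.98, 13.6 and 14.9 in severe mice. The severe ratios lay below those of every other mouse, and the moderate ratios fell within the range of the mice without TMX. On the log2 scale the severe mean was below the moderate mean by 1.86 units (3.55 ± 0.49 against 5.41 ± 0.31, SD, n = 3 each), with an exact two-sided permutation p of 0.10, the smallest that 3 against 3 mice allow. Each severe mouse thus had less *H19* per *Igf2* than each moderate mouse, whatever the scaling.

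**Figure D2:**
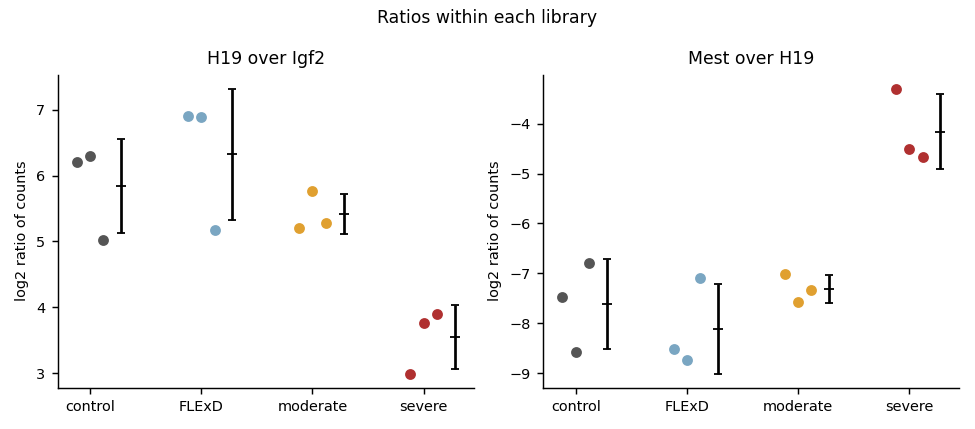
Log2 ratio of the counts of *H19* to *Igf2* (left) and of *Mest* to *H19* (right) in each mouse, with points for mice and a bar for the mean and SD of each group (n = 3). The severe group stands apart in both panels, with a mean of 3.55 for *H19* over *Igf2* and -4.16 for *Mest* over *H19*.

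*Dlk1*, a transmembrane relative of the Notch ligands that marks fetal muscle and preadipocytes, was the scarcest member. It had 7, 7 and 11 counts in control, 5, 3 and 4 in FLExD, 14, 6 and 13 in moderate and 41, 26 and 29 in severe mice. In CPM the severe mice (0.613 to 0.924) lay above the control mice (0.337 to 0.521), and the moderate mice (0.207 to 0.442) overlapped them. The fitted log2 difference was -0.18 ± 0.38 for moderate and 0.86 ± 0.34 for severe against control muscle, and the moderate value turned to 0.42 with library size alone. Severe muscle was 1.04 ± 0.32 log2 units above moderate muscle. That value is given without a test because only the severe group had at least 10 counts in every mouse. Fitted with no filter on low counts, the difference was 1.09 ± 0.35 (edgeR adjusted p = 0.0212). In the filtered fit the difference was smaller without moderate mouse 1308 (0.77 ± 0.33) or severe mouse 1047 (0.86 ± 0.36), and each time it missed the call limits.

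*Meg3*, a maternally expressed noncoding RNA at the same locus, was far more abundant than *Dlk1*. It measured 17.2, 14.1 and 19.2 CPM in control, 13.1, 12.9 and 21.3 in FLExD, 29.7, 33.7 and 31.0 in moderate and 57.1, 41.5 and 43.7 in severe mice. Each model group lay above the mice without TMX and the severe mice above the moderate ones. Against control, *Meg3* was higher by 0.90 ± 0.19 log2 units in moderate and by 1.49 ± 0.19 in severe muscle. The step from moderate to severe was 0.59 ± 0.18 log2 units (adjusted p = 0.0152), and it missed the call without moderate mouse 1236 (0.55, adjusted p = 0.05503) or severe mouse 1047 (0.44, adjusted p = 0.0821).

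*Cdkn1c* encodes p57, a cyclin-dependent kinase inhibitor that holds differentiating myoblasts out of the cell cycle. Its control values were 11.5, 13.7 and 13.2 CPM and its FLExD values 13.3, 10.5 and 12.9 CPM. The moderate mice gave 29.7, 17.4 and 26.0 CPM and the severe mice 103, 71.4 and 99.7 CPM. Neither model group overlapped control, with log2 differences of 0.92 ± 0.19 for moderate and 2.83 ± 0.20 for severe muscle. The severe group was 1.91 ± 0.19 log2 units above the moderate group (adjusted p = 6.30e-06).

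*Grb10*, an adaptor that binds the insulin and IGF1 receptors and dampens their signal, had another profile. It measured 76.5, 78.0 and 93.0 CPM in control, 77.7, 74.7 and 73.1 in FLExD and 79.6, 60.4 and 78.0 in moderate mice, which overlapped. In severe mice it measured 237, 177 and 213 CPM, above all others. Compared with control, the log2 difference was -0.18 ± 0.13 for moderate and 1.34 ± 0.13 for severe muscle. The moderate value turned to 0.42 ± 0.14 with library size alone and 0.24 ± 0.13 on log2(TPM + 1), so its direction there depends on scaling. The severe to moderate difference was 1.52 ± 0.13 (adjusted p = 1.85e-06) and was positive under each scaling tried.

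*Mest*, an alpha/beta hydrolase family member of fetal mesoderm, differed more between severe and control muscle than the other 8. It measured 3.16, 2.07 and 3.70 CPM in control, 2.80, 2.43 and 2.51 in FLExD, 18.7, 12.4 and 14.5 in moderate and 136, 68.7 and 80.8 in severe mice. From control, moderate muscle differed by 2.35 ± 0.30 log2 units and severe muscle by 4.995 ± 0.31, a fold of 31.9 between means. Severe muscle exceeded moderate muscle by 2.64 ± 0.26 log2 units (adjusted p = 1.21e-05). *Copg2*, which overlaps *Mest* on the opposite strand, followed another course, with means of 19.2, 39.7 and 39.0 CPM in control, moderate and severe muscle. The strandedness of the libraries is not given in the sources used here, so reads in the overlap may have been shared.

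*Peg3* and *Plagl1* encode zinc finger proteins, the first linked to muscle stem cells and cell death and the second to growth arrest and to regulation of other imprinted genes. *Peg3* measured 16.6, 20.9 and 29.96 CPM in control, 18.8, 18.6 and 25.7 in FLExD, 70.9, 51.7 and 59.6 in moderate and 213, 152 and 186 in severe mice. Its log2 difference from control was 1.43 ± 0.21 (moderate) and 3.03 ± 0.22 (severe), and the severe to moderate step was 1.596 ± 0.21 (adjusted p = 5.40e-05). *Plagl1* measured 1.86, 2.07 and 4.03 CPM in control, 1.57, 1.83 and 2.51 in FLExD, 6.18, 5.31 and 5.78 in moderate and 14.0, 8.09 and 13.3 in severe mice. Its log2 difference from control was 1.11 ± 0.28 (moderate) and 2.14 ± 0.27 (severe), and the step between models was 1.03 ± 0.25 (adjusted p = 0.00354). For both genes the severe, the moderate and the untreated mice did not overlap. In the comparisons given for *H19*, most tested genes lay apart as well.

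*Dlk1*, for which only the severe group had at least 10 counts in every mouse, was left out of the count between the models. Of the other 8 genes 7 were higher in severe than in moderate muscle, at an adjusted p under 0.05 and a log2 difference of at least 0.5. Of all 16679 tested genes 17.6% were called higher and 18.8% lower. The median log2 difference of these 8 was 1.42, beside 0.02 over all tested genes. The genes were picked partly for being high in these models, so the count describes them and does not set them apart from other genes. By size alone, 7 of 9 were at least 0.5 log2 units higher in moderate than in control muscle, and edgeR called 24.4% of all genes higher and 17% lower there. In severe against control muscle 9 of 9 were higher by that size, and 32.9% of all genes were called higher and 27.9% lower. These comparisons chose the genes, so nothing is read from either count.

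**Figure D3:**
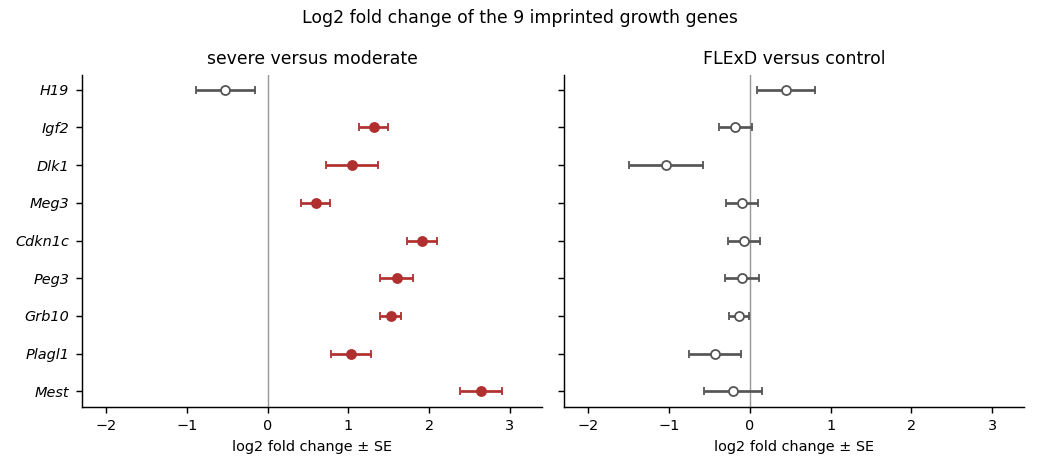
Log2 fold change ± SE of the 9 genes in severe versus moderate muscle (left) and FLExD versus control muscle (right), filled where the call limits were passed. *Dlk1* is filled on the left, although its low counts kept it out of the count of calls in the text. On the left *H19* is the only gene below 0, at -0.52, a direction that turns with library size alone or TPM, and on the right no gene passes.

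FLExD mice carried the unrecombined DUX4 transgene and control mice the recombinase transgene, so comparing them cannot isolate the effect of either. The comparison describes how the untreated groups differed. By edgeR, 0 of the 9 genes were called, with adjusted p of 1.00 for each, as was 0.006% of all genes (1 of 16679), while 638 genes had an unadjusted p under 0.05. By limma on TPM, by DESeq2 and with the other edgeR settings 0 of the 9 were called as well. The greatest difference by edgeR was that of *Dlk1*, at -1.04 ± 0.46 log2 units (unadjusted p = 0.0394), with 3 to 5 counts per FLExD mouse against 7 to 11 per control mouse. It was -0.12 on log2(TPM + 1) and -0.25 on log2(TPM + 0.1). In TPM the FLExD mice (0.54 to 0.68) overlapped the control mice (0.66 to 0.85). *H19* differed by 0.45 ± 0.36 log2 units, with FLExD mouse 1378 below all control mice and the other 2 above them.

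Ordered by TPM, the 9 genes changed places between groups. In control muscle *H19* (268 ± 80.3, SD, n = 3) led, followed by *Grb10* (17.3 ± 2.28), *Meg3* (10.7 ± 1.78), *Cdkn1c* (6.83 ± 0.73) and *Igf2* (4.10 ± 0.96). *Peg3* (2.81 ± 0.88) and *Mest* (2.34 ± 0.52) overlapped their neighbours, and *Plagl1* (1.48 ± 0.28) and *Dlk1* (0.74 ± 0.10) came last. In severe muscle *H19* (1664 ± 273) was followed by *Cdkn1c* (110 ± 19.7), *Igf2* (107 ± 22.5), *Grb10* (92.0 ± 14.9) and *Mest* (89.0 ± 31.0), each overlapping the next. *Meg3* (55.8 ± 10.4) and *Peg3* (46.6 ± 7.60) overlapped each other, with *Plagl1* (7.91 ± 1.37) and *Dlk1* (1.54 ± 0.19) again last. *Mest* thus moved from a level near that of *Peg3* in control to above *Meg3* in severe muscle, without overlap between the latter pair.

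Over all 12 mice *Igf2*, *Peg3*, *Mest*, *Plagl1* and *Meg3* had log2 CPM patterns alike, with Pearson r of 0.95 to 0.99 between each pair. These points share the 4 groups, so r mostly repeats the group differences. *H19* was least like the others, with r from 0.23 (*Grb10*) to 0.74 (*Igf2*). Among other genes with at least 1 CPM on average, those with the highest r to *H19* were *Ppm1f* (0.97), *Ccdc104* (0.97), *Ift81* (0.97) and *Spsb4* (0.96). All 4 shared its order, with means of 30.4 CPM in moderate and 28.1 CPM in severe muscle for *Ppm1f* against 18.9 in control.

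The genes around *H19* moved in opposite directions, a description added after the data were seen. *Nctc1*, a noncoding RNA 16.9 kb from *H19*, fell from 148, 135 and 134 CPM in control to 49.0, 59.4 and 62.6 CPM in moderate and 8.36, 14.4 and 15.8 CPM in severe mice. That is -1.29 ± 0.18 and -3.44 ± 0.19 log2 units (adjusted p = 4.35e-05 and 3.79e-09). The fast-fibre troponin genes *Tnnt3* and *Tnni2*, 59.5 and 131 kb away, fell alongside, at -3.53 ± 0.23 and -3.19 ± 0.23 log2 units in severe muscle (adjusted p = 5.97e-09 and 1.61e-08). *Lsp1*, a leukocyte protein gene between them, rose by 1.29 ± 0.10 log2 units in severe muscle (adjusted p = 4.67e-08). Farther out on the same side, *Syt8* (2.14 ± 0.38), *Ctsd* (0.85 ± 0.11) and *Ifitm10* (0.81 ± 0.30) were called higher in severe muscle, and the nearer *Mrpl23* was not called (adjusted p = 0.244). Around all 9 members, 45 other genes within 250 kb were tested, and in severe against control muscle 22 of them were called higher and 8 lower, where 32.9% and 27.9% of all tested genes were.

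**Figure D4:**
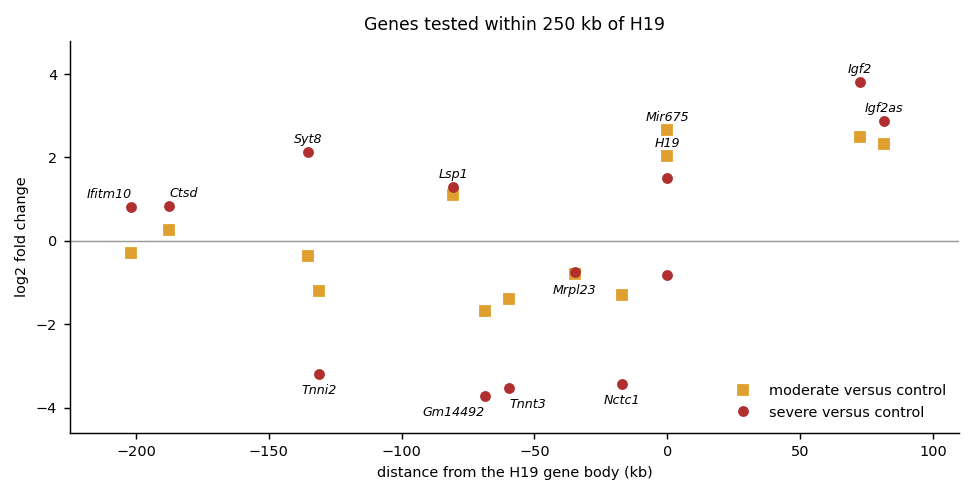
Log2 fold change of genes tested within 250 kb of *H19* by their distance from its gene body, for moderate (squares) and severe (circles) versus control. *Nctc1*, *Tnnt3*, *Gm14492* and *Tnni2* lie below 0 in both models, while *Igf2* at 72.6 kb lies at 2.49 and 3.8. *Mir675*, inside *H19*, lies above 0 in moderate muscle, where mouse 1308 had 34.2 CPM against 6.28 and 3.82 in the others. Its severe value below 0 (-0.81 ± 1.02) was not called.

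The *Dlk1* to *Meg3* locus carries further imprinted transcripts, and the 4 of them in the list of other imprinted genes were called higher in both models. Of all tested genes 24.4% were called higher in moderate and 32.9% in severe muscle. *Rian*, a host of small nucleolar RNAs, had means of 23.7, 45.3 and 60.5 CPM in control, moderate and severe muscle, and rose in severe muscle by 1.35 ± 0.30 log2 units (adjusted p = 0.00217). *Mirg*, a microRNA host gene, had means of 0.862, 2.60 and 4.13 CPM and rose by 2.25 ± 0.27 (adjusted p = 3.66e-06). *Rtl1*, a paternally expressed gene of retrotransposon origin, rose by 2.12 ± 0.41 (adjusted p = 0.000464). *Dio3*, which inactivates thyroid hormone, stood at or under 3 counts in each control mouse and at 1.51 to 3.27 CPM in severe mice. From moderate to severe, *Mirg* and *Dio3* passed and *Rian* and *Rtl1* did not (adjusted p = 0.262 and 0.0770).

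Other imprinted genes changed in both directions. Of 32 listed, 26 were tested, and in severe muscle 15 were higher, 6 lower and 5 not called, where 32.9% of all genes were higher and 27.9% lower. Their median was 0.90 log2 units beside 0.08 over all genes. In moderate muscle 14 were higher and 4 lower, and from moderate to severe 8 were higher and 3 lower. Over all genes 24.4% were higher and 17% lower in moderate muscle, and 17.6% and 18.8% from moderate to severe. The greatest rises in severe muscle were those of *Dio3*, *Gatm*, a creatine synthesis enzyme (4.55 ± 0.19, adjusted p = 3.38e-10), and *Ascl2*, a transcription factor at 0 to 0.0482 CPM in control and 0.435 to 0.472 CPM in severe mice. The greatest falls were those of *Asb4* (-2.27 ± 0.28, adjusted p = 4.45e-06), the amino acid transporter gene *Slc38a4* (-2.10 ± 0.23, adjusted p = 5.13e-06) and *Snrpn*, a splicing factor gene (-1.80 ± 0.14, adjusted p = 5.22e-08). With library size alone the severe split was 20 higher and 2 lower, and on log2(TPM + 1) it was 20 and 3. From moderate to severe it was 17 and 0 on either.

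**Figure D5:**
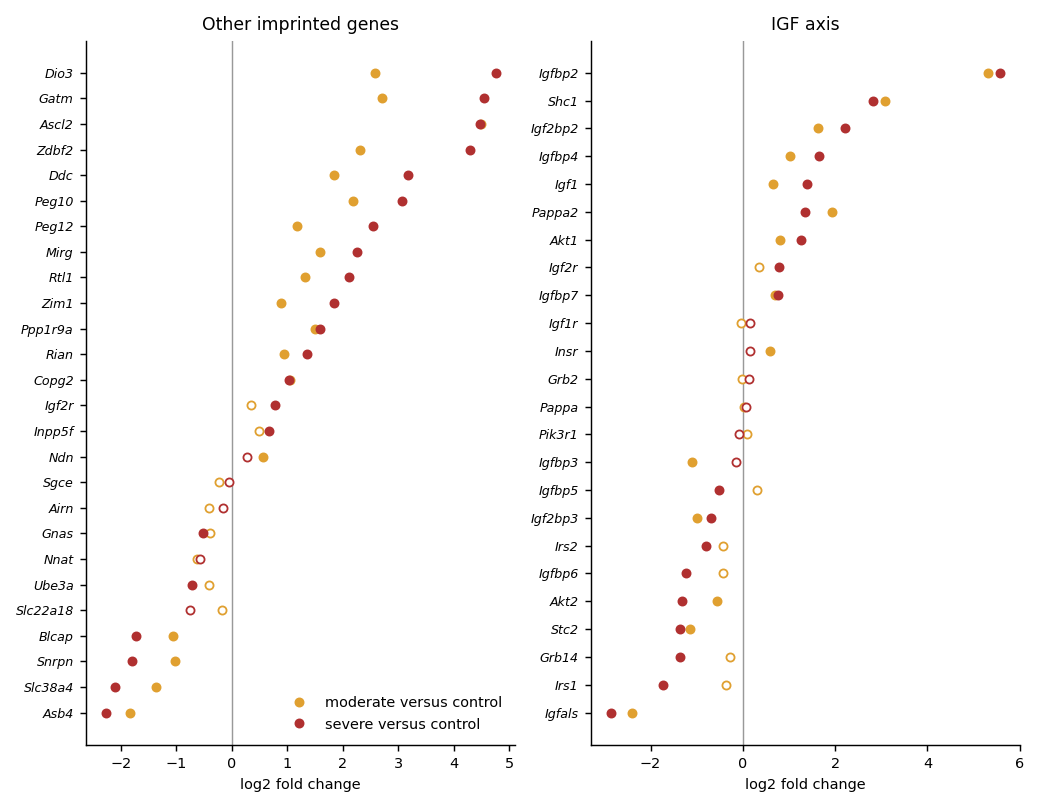
Log2 fold change versus control of the tested genes of 2 lists, other imprinted genes (left) and the IGF axis (right), for the moderate and severe models, filled where called by edgeR. On the left 15 genes are called higher and 6 lower in severe muscle, and on the right 9 and 9, splits that depend on scaling.

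*Igf2* and *Grb10* act through the IGF axis. Across its ligands, receptors, binding proteins and adaptors 24 of 29 listed genes were tested, and in severe muscle 9 were higher and 9 lower, with a median of 0.10 log2 units beside 0.08 over all genes. With 32.9% of all genes called higher and 27.9% lower, these counts lie near the background. In moderate muscle 9 were higher and 5 lower, and between the models 4 were higher and 5 lower. The shares of all genes were 24.4% and 17% in moderate muscle, and 17.6% and 18.8% between the models. With library size alone the severe split was 18 higher and 1 lower, and on log2(TPM + 1) it was 14 and 1, so the balance of the list depends on scaling.

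Among ligands and receptors, *Igf1*, the adult partner of *Igf2*, had means of 23.5, 37.2 and 61.5 CPM in control, moderate and severe muscle and rose by 0.66 ± 0.19 and 1.39 ± 0.19 log2 units (adjusted p = 0.0113 and 2.86e-05). Within libraries, *Igf2* counts were 0.391 to 0.473 of those of *Igf1* in control, 1.21 to 1.68 in moderate and 2.20 to 2.37 in severe mice. *Igf1r*, the receptor through which both act, gave 0.16 ± 0.11 in severe muscle and was not called (adjusted p = 0.191). *Igf2r*, itself imprinted and a receptor that clears IGF2, rose by 0.78 ± 0.11 in severe muscle (adjusted p = 1.78e-05). *Insr*, the insulin receptor, rose in moderate muscle (0.59 ± 0.11, adjusted p = 0.000314) and gave 0.15 ± 0.11 in severe muscle, where it was not called.

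The binding proteins, which hold IGFs in the extracellular space, split. In severe muscle 4 of the 10 tested genes of that list were higher and 4 lower. Over all tested genes 32.9% were called higher and 27.9% lower, so these counts lie near the background. *Igfbp2* stood at 0 to 0.142 CPM in control, at or under 3 counts, and at 2.85 to 3.73 CPM in severe mice. *Igfbp4* rose by 1.65 ± 0.12 log2 units (adjusted p = 2.54e-08) and the protease gene *Pappa2* by 1.34 log2 units from low counts. *Igfals*, the acid-labile subunit (-2.86 ± 0.24, adjusted p = 1.03e-07), *Stc2*, an inhibitor of the protease (-1.36 ± 0.17, adjusted p = 5.01e-06), and *Igfbp6*, which prefers IGF2 (-1.23 ± 0.18, adjusted p = 3.92e-05), fell. The falls of *Stc2* and *Igfbp6* were smaller than the median shift of 1.39 given above, so they may not hold under library size alone.

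Among the 8 tested adaptors 2 were higher and 4 lower in severe muscle, beside 32.9% and 27.9% of all tested genes. *Grb14*, the tested relative of *Grb10*, fell in severe muscle by 1.37 ± 0.29 on the log2 scale (adjusted p = 0.00123), and *Irs1*, the receptor substrate, by 1.74 ± 0.19 (adjusted p = 2.86e-06). *Shc1* rose by 2.82 ± 0.16 (adjusted p = 2.39e-09). Of the 2 tested genes for IGF2 mRNA-binding proteins, *Igf2bp2* rose by 2.22 ± 0.20 (adjusted p = 2.03e-07) and *Igf2bp3* fell by 0.69 ± 0.18 (adjusted p = 0.00352) in severe muscle. The falls of *Grb14* and *Igf2bp3* also lay within the median shift of 1.39, so they may not hold under library size alone.

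Relatives of the other members also differed among themselves. Of 6 cyclin-dependent kinase inhibitors related to *Cdkn1c*, 2 were higher and 1 lower in severe muscle. Of all tested genes 32.9% were called higher and 27.9% lower there. *Cdkn1a*, which encodes p21, rose by 3.12 ± 0.25 (adjusted p = 6.32e-08) and *Cdkn1b*, which encodes p27, fell by 0.78 ± 0.08 (adjusted p = 9.60e-07). *Cdkn2a* had 0 counts in every control mouse and 0.652 to 0.812 CPM in severe mice. Among Notch ligands *Dll1* rose (1.79 ± 0.16, adjusted p = 1.43e-07), *Dll4* fell (-2.34 ± 0.27, adjusted p = 2.37e-06), *Jag2* fell (-1.10 ± 0.09, adjusted p = 7.73e-08) and *Jag1* was not called (0.12 ± 0.10, adjusted p = 0.266). Of the other PLAG family genes, *Plagl2* rose (0.70 ± 0.20, adjusted p = 0.00703) and *Plag1* fell (-0.61 ± 0.21, adjusted p = 0.0166). The falls of *Cdkn1b*, *Jag2* and *Plag1* were smaller than the median shift of 1.39, so they may not hold under library size alone.

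Genes of regeneration and of cell division were mostly higher in severe muscle, where 32.9% of all tested genes were called higher and 27.9% lower. Of 10 regeneration genes 9 were higher and 1, *Actc1*, lower in severe muscle, with *Myh3*, the embryonic myosin, at means of 9.32, 239 and 1037 CPM in control, moderate and severe mice. All 7 proliferation genes were higher in severe muscle, and *Mki67* had means of 1.02, 34.3 and 108 CPM. In moderate muscle 8 of the 10 and 6 of the 7 were called higher, without *Myod1*, *Actc1* and *Mcm2*. There 24.4% of all tested genes were called higher.

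Markers of several cell types changed with the groups as well. The 7 macrophage markers, each higher in both models, summed to 88.1 to 114 CPM in control, 439 to 549 in moderate and 972 to 1061 in severe mice. The fibro-adipogenic and fibroblast sum ran from 641 to 1567 CPM in control, from 2470 to 2641 in moderate and from 4415 to 5860 in severe mice. Yet only 3 of its 8 genes were higher in severe muscle, and 2, *Dcn* and *Dpp4*, were lower. Most of the severe sum came from *Col3a1*, *Col1a1* and *Postn*, at means of 3128, 802 and 793 CPM, and *Col1a1* was not called. The satellite cell and myoblast sum was 1845 to 2048 CPM in control, 1545 to 1667 in moderate and 810 to 1020 in severe mice. Most of that sum is *Des*, which fibres also express. Without *Des* the sum was 25.1 to 29.4, 70.2 to 96.9 and 150 to 162 CPM in the same order. Of the 7 genes 5 were higher and 1 lower in severe muscle. Of 6 endothelial markers, 5 were lower in severe muscle, and of the other lists, 2 of 5 pericyte and smooth muscle genes were higher and 2 lower, 2 of 3 adipocyte genes and 3 of 3 Schwann cell genes were lower, and 1 of 3 tendon genes was higher and 2 lower. Of all tested genes 32.9% were called higher and 27.9% lower in severe muscle, and 24.4% higher in moderate muscle. No marker stood at or under 3 counts in all mice of any group. The part of these cell types in the levels of the 9 genes was not tested.

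Control mouse 1349 had the highest fibro-adipogenic and fibroblast sum of its group, at 1567 CPM against 641 and 786. That sum rests largely on *Col1a1* and *Col3a1*, which ran from 54.6 to 549 and from 185 to 553.5 CPM in control. *Postn* ran from 5.6 to 20.9 CPM there, while *Pdgfra* (49.4 to 69.1 CPM) and *Dcn* (308 to 341 CPM) varied less. Mouse 1349 also had the highest control values of *Igf2*, *Dlk1*, *Meg3*, *Peg3*, *Grb10*, *Plagl1* and *Mest*, with the lowest of *H19*. Without it the severe to control difference was 1.28 for *H19* and 2.56 for *Plagl1*, against 1.5 and 2.14 with it, and the difference between moderate and control of *Plagl1* was 1.51 against 1.11.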

How the data were processed

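Gastrocnemius RNA-seq libraries of 12 mice were grouped by their labels. Per the study's methods, single 50-base reads were assigned with RSEM 1.2.4 and Bowtie to a merged mm10 annotation, and unaligned reads were mapped with TopHat 2.0.8b. The authors deposited RSEM expected counts per gene, which divide ambiguous reads among genes, and TPM per gene without TMM scaling. Totals were 23796902 to 29136403 expected counts, and 3 counts corresponded to 0.0676 to 0.155 CPM, covering counting error only.

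Expected counts were rounded, filtered by filterByExpr and scaled by TMM in edgeR 4.0.16 (R 4.3.3), and a robust quasi-likelihood model of the 4 groups was fitted to 16679 genes. Adjusted p are Benjamini-Hochberg values over all tested genes. Calls needed an adjusted p under 0.05 and a log2 fold change of at least 0.5. Alternatives used DESeq2 1.42.0, limma 3.58.1 on log2(TPM + 1) and log2(TPM + 0.1), other scalings and filters, and leaving out each mouse. On simulated counts for moderate versus control, edgeR recovered 188 of 200 genes changed by 2 log2 units, with 4 false calls over 14193 genes. Those counts were drawn from control and FLExD means and spreads, with as many genes raised as lowered. They lacked the loss of fibre transcripts, so the result does not cover the dependence on scaling. The members and the gene lists were chosen with earlier results of these data known. Named genes are the 9 members, their receptors, partners and relatives, in lists of over 10 genes the 3 called genes with the greatest severe to control change in each direction, the 5 genes most like *H19* (of which 1 is not reported here), and markers. *Nctc1*, *Wfdc3*, the protein-coding neighbours of *H19* and the genes of the *Dlk1* locus were named after their values were seen. *Rian* and *Mirg* were matched by identifier, and labels do not say whether mice are separate litters, so p-values cover the spread between these samples. Kcnq1ot1 and Peg13 were not analysed here.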

Additional observations from a re-analysis of the deposited data

How the results depend on the processing

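With *Dlk1* left out, the severe to moderate calls of the 7 members called higher were the same under every scaling, tool and filter tried. The exception was *Meg3* (0.59), under the limit when a log2 fold of at least 1 was required. *Dlk1* had no value with at least 10 counts in every mouse. Leaving out each mouse in turn changed the call of *Meg3* alone among these 7, without moderate mouse 1236 or severe mouse 1047. *H19* turned from -0.52 to 0.16 with library size alone, 0.11 on log2(TPM + 1) and 0.11 on log2(TPM + 0.1), and with only the 2 groups compared 1 member, *H19*, was called lower. In FLExD versus control, where no member was called, leaving out each mouse gave ranges that crossed 0 for *Igf2* (-0.34 to 0.0117), *Meg3* (-0.38 to 0.0308), *Cdkn1c* (-0.14 to 0.0303) and *Peg3* (-0.27 to 0.16), with the highest values of *Igf2* and *Peg3* without control mouse 1349 and those of *Meg3* and *Cdkn1c* without FLExD mouse 1367. The log2 ratio of *H19* to *Igf2* differed between the models by -2.04 to -1.58 with each mouse left out.

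Counts in the other lists moved with the scaling, whose median shift is given above. For other imprinted genes, library size alone gave 2 lower in moderate, 2 lower in severe, and 17 higher and 0 lower from moderate to severe. TPM with a pseudocount of 1 gave 3 lower in severe, and 17 higher and 0 lower between models, and with 0.1 gave 3, 18 and 0. A log2 fold of at least 1 gave 5 higher and 0 lower between models. For the IGF axis, library size alone gave 14 higher and 2 lower in moderate, 18 and 1 in severe, and 13 and 1 between models. TPM with a pseudocount of 1 gave 2 lower in moderate, 14 higher and 1 lower in severe, and 11 and 1 between models. A pseudocount of 0.1 gave 2 lower, 17 and 1, and 14 and 1. A log2 fold of at least 1 gave 5 higher in moderate, and 0 higher and 2 lower between models. Leaving out each mouse gave 5 to 8 IGF axis genes lower in moderate, with 8 without moderate mouse 1308.

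*Dlk1* rests on 3 to 41 counts a mouse, which limits its precision. No paired analysis was possible because the groups share no replicate numbers.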

Other observations

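Among the 6 mice without TMX, *H19* and *Meg3* ran in opposite order, a relation noticed in the data and then measured. Mouse by mouse, *H19* was 338, 408, 561, 785, 1017 and 1041 CPM where *Meg3* was 21.3, 19.2, 17.2, 14.1, 13.1 and 12.9 CPM. Pearson r of log2 CPM was -0.996 and Spearman rho -1, given without a p because the order prompted the measurement. Without the 2 mice farthest from the median of *H19* (1378 and 1349), r was -0.987. With the other 7 members r of *H19* lay between -0.75 and -0.28 in these mice. Each genotype holds only 3 of these mice, too few for a value within it. Of 15925 genes above 0 in these mice, 2, *Meg3* included, had an r this low, and 3 had one as high in the other direction. The rank comes from the same mice that prompted the relation, so it is a description and no test. Over all 12 mice, with both models included, r between *H19* and *Meg3* was 0.57.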
